A study of Mus musculus with 36 samples.

Results

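Hearts with 2 weeks of Akt1 induction were compared with hearts taken before induction. The comparison holds 4 induced hearts, from mice 14 weeks of age, and 4 control hearts, from mice 12 weeks of age, chosen by their titles. RNA of each heart was hybridised to an Affymetrix chip 430A and a chip 430B, which gives 16 of the 36 arrays and 8 of the 18 hearts of the series. All 8 mice were labelled male and Tet-myrAkt1/?MHC-tTA, so the control hearts carried both transgenes too: a myristoylated Akt1 under a tetracycline-responsive promoter, and the transactivator tTA under the alpha myosin heavy chain promoter (the label prints the first letter as ?), which is active in heart muscle cells. No heart without transgenes was analysed here, and the 2 weeks of induction cannot be told apart from the 2 weeks of age between the groups. The other 10 hearts of the series, taken at later states, entered the model only through the shared estimate of the spread.

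Akt1 is a kinase that insulin and growth factor receptors switch on through PI3-kinase. A myristoyl group anchors it at the membrane, where it stays active without a hormone. In heart muscle Akt is known to favour growth: it releases mTOR-driven protein synthesis, moves glucose transporters to the cell surface, and keeps FoxO transcription factors, which drive genes of muscle wasting and of energy use in fasting, out of the nucleus. The first weeks of Akt1 induction in such mice are known as a stage of growth with kept pumping function.

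Values are deposited signals of a probe set, an intensity on a linear scale that allows comparison of 1 probe set between hearts of a chip, not of different genes. A log2 change is induced minus control on the log2 scale, where 1 stands for a doubling, and is given with the standard error of the model. A gene was called, and is said to have risen or fallen, at an adjusted p under 0.05 in the limma model over all probe sets of its chip. The lack of a call does not show that a gene was unchanged. Beside a count of 0, the number of genes at an unadjusted p under 0.05 in limma is given. Where a call is said to be lost without named hearts, each was left out on its own. Of 18193 genes with a probe set of their own on the chips, 14650 passed the filter on dim probe sets and are called measured. In whole hearts, fewer cells of a type and less RNA per cell cannot be told apart.

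The 3′ to 5′ signal ratio of Actb, a measure of RNA integrity, was 1.47 ± 0.304 in induced hearts and 1.38 ± 0.165 in control hearts on chip 430A (SD, n = 4 each), and none of 12 array measures tested, among them 18S rRNA signal and the median signal, passed a test between the groups (two-sided exact permutation tests, lowest p = 0.0857, adjusted p = 0.743, smallest p possible 0.0286). The lowest p was that of the 18S rRNA probe set of the 5′ end on chip 430A, with means of 154 in induced hearts and 244 in control hearts. With 4 hearts in each group an adjusted p can hardly pass, so these tests do not show equal array quality. Control hearts 3 and 4 went against their male label. Their Xist signal, the RNA that coats the inactive X chromosome of females, was 2518 and 2170.2, against 9.6 and 32.2 in control hearts 1 and 2 and 24.6 to 34.2 in induced hearts, and their signal of the Y-linked Eif2s3y was 2.8 and 3.6, against 430 and 483. These 2 are called the Xist hearts below, and list counts are given with and without them where a list holds 3 or more calls. Dropping them leaves 2 control hearts, so the loss of a call there also reflects fewer samples. Control heart 4 and, less so, induced heart 3 stood apart in genes of the atria. Myl7, the atrial regulatory light chain, was at 370, 191, 3626 and 45.6 in the 4 induced hearts, against 6.1, 92.3, 20.8 and 13763 in the control hearts, and Sln, Myl4 and Nppa were highest in control heart 4 too. An alternative without these 2 hearts was added after the values had been seen, and counts without them are given likewise as "without the atrial hearts".

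The targeted gene rose in each induced heart. The probe set of Akt1 with the largest change read 1981, 2888, 3481 and 3164 in induced hearts, against 514, 517, 508 and 652 in control hearts (log2 change 2.27 ± 0.16, adjusted p = 7.94e-08). Every induced heart lay above every control heart. The other probe sets of the gene did not rise. On chip 430A another read 1045, 778, 919 and 769 in induced hearts, against 989, 814, 1194 and 1179 in control hearts (log2 change -0.23 ± 0.15, adjusted p = 0.382). One on chip 430B read 255, 98.6, 120 and 151 in induced hearts, against 239, 221, 287 and 193 in control hearts (log2 change -0.63 ± 0.21, adjusted p = 0.151), and was called lower without induced heart 1 (-0.87, adjusted p = 0.017). A further one lay under the filter on dim probe sets.

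On chip 430A, 668 of 15565 probe sets were higher (4.29%) and 634 lower (4.07%), and on chip 430B 213 of 17519 were higher (1.22%) and 143 lower (0.816%). Taken by gene, with the brightest probe set standing for each of 14650 genes, 540 rose (3.69%) and 425 fell (2.90%), and the median log2 change over all genes was -0.02. Without the Xist hearts 174 genes rose (1.19%) and 139 fell (0.949%), of which 157 and 135 were among those called with all hearts. Without the atrial hearts 208 rose (1.42%) and 180 fell (1.23%). Scaling the arrays to a common median moved the median change on chip 430A to 0.035, against -0.051 as deposited, and the split of calls there to 729 higher and 340 lower, a share of 68.2% higher against 51.3%. Fewer falls were thus called under that scaling, and where a printed list median changed sign under it, that median is given too. Over all kept probe sets the hearts of the groups did not overlap in 14.4% on chip 430A and 8.21% on chip 430B. All 1302 probe sets called on chip 430A and all 356 on chip 430B had the same sign of change without the Xist hearts, a fit that shares the other 6 hearts, and the median size of those changes on chip 430A was 0.65 without them and 0.68 with all hearts. Single hearts mattered for these totals: without induced heart 3 the calls on chip 430A came to 817, and without control heart 3 to 847, against 1302 with all hearts. On chip 430B, where 356 were called with all hearts, 213, 218 and 209 remained in number without induced heart 2, 3 or 4, and 172 without control heart 3.

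**Figure D1:**
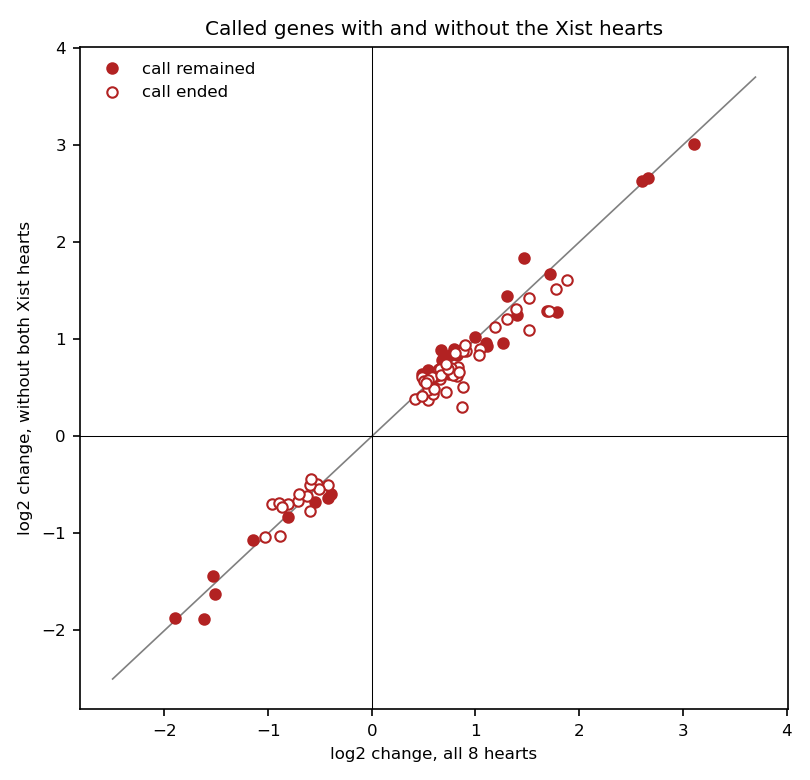
Log2 change of the genes called in 10 families with all 8 hearts (horizontal axis) against the change without both Xist hearts (vertical axis), filled where the call remained and open where it ended, with the diagonal drawn. Of 96 genes, 37 remained called, all 96 kept their sign, and the 2 changes of a gene differed by a median of 0.10 and at most 0.57.

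**Figure D2:**
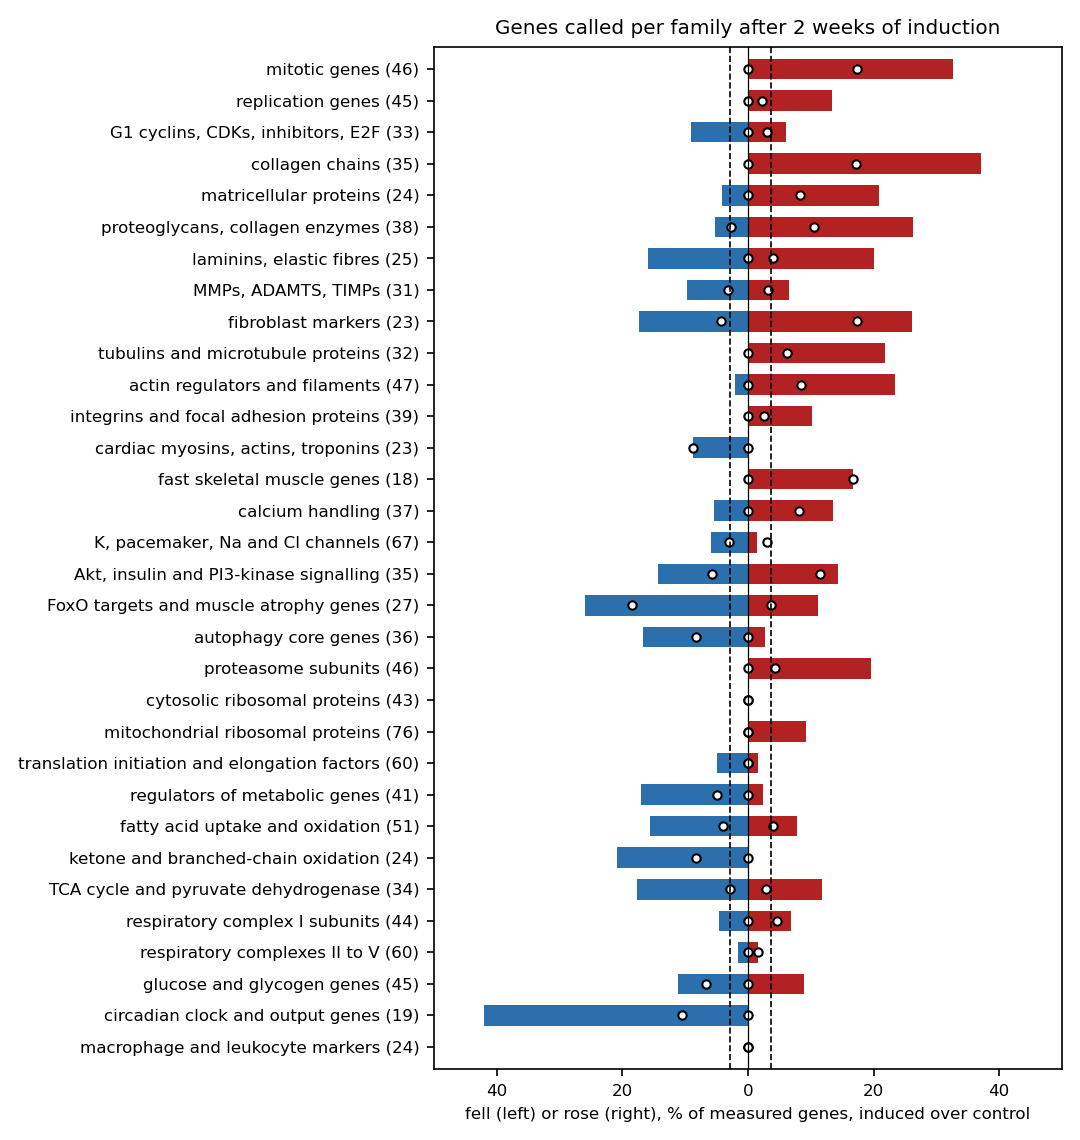
Share of the measured genes of 32 families that rose (right, red) or fell (left, blue) in induced hearts against control hearts; the number measured stands beside each name, open circles give the shares without both Xist hearts, and the dashed lines mark all genes (3.69% and 2.90%). Mitotic genes and collagen chains reach furthest to the right, with 15 of 46 and 13 of 35, and clock genes furthest to the left, with 8 of 19.

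Signalling genes around Akt moved in both directions: 5 of 35 measured genes rose (14.3%) and 5 fell (14.3%), with a median log2 change of -0.11. The 5 that rose include the induced gene Akt1 itself, with the largest change of the list (2.27). Irs1, the docking protein that carries the signal of the insulin receptor to PI3-kinase, read 356, 497, 463 and 484 in induced hearts, against 1389, 1147, 1130.1 and 1030.5 in control hearts (log2 change -1.29 ± 0.13, adjusted p = 9.54e-06), with all induced hearts below all control hearts. Pik3r1, the main regulatory subunit of PI3-kinase, fell (-0.95, adjusted p = 0.0319). Pik3r3, another regulatory subunit, read 943, 988, 1009.6 and 1019 in induced hearts, against 417, 411, 374 and 413 in control hearts (log2 change 1.27 ± 0.14, adjusted p = 1.85e-05). Those hearts did not overlap either. A pair of adaptors known to bind and dampen the insulin receptor rose, with log2 changes of 0.78 for Grb10 and 0.81 for Grb14 (adjusted p 0.000473 to 0.00146). Akt2, the isoform most tied to glucose uptake, fell (-0.72, adjusted p = 0.000627), as did Tsc2, a brake on mTOR (-0.80, adjusted p = 0.0123). The Akt and insulin list had 4 higher and 2 lower without the Xist hearts, 4 and 2 without the atrial hearts, and 5 and 4 under median scaling. With both Xist hearts left out, the calls of Irs1, Pik3r3, Grb10, Grb14 and Akt2 remained. Those of Pik3r1 and Tsc2 ended (adjusted p 0.112 to 0.201). Without the atrial hearts, the calls of Pik3r1 and Tsc2 ended (adjusted p 0.0614 to 0.105). Pik3r1 lost its call without induced heart 1, 3 or 4, or control heart 1 or 3 (adjusted p up to 0.106).

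Of FoxO targets and genes of muscle wasting, 3 of 27 measured genes rose (11.1%) and 7 fell (25.9%), and the median was -0.34. Klf15, a transcription factor of fasting metabolism that is known to restrain cardiac growth, read 104, 69.8, 84.1 and 176 in induced hearts, against 480, 549, 453 and 625 in control hearts (log2 change -1.90 ± 0.23, adjusted p = 4.46e-05). Fbxo32, the ubiquitin ligase atrogin-1 of muscle wasting, read 526, 450, 511 and 519 in induced hearts, against 2657, 1467, 1702 and 1091 in control hearts (log2 change -1.62 ± 0.22, adjusted p = 0.000129). For both genes all induced hearts lay below all control hearts. Trim63, the other classical atrophy ligase, was not called (log2 change -0.39 ± 0.16, adjusted p = 0.252). Gabarapl1, an autophagosome protein, fell, with a log2 change of -0.81, as did Bcl2l11, the cell death protein Bim, with -0.71, and Ulk1, the kinase that starts autophagy, with -0.53 (adjusted p 0.00258 to 0.0109). Against this direction Pdk4, the kinase that shuts off pyruvate dehydrogenase and a known FoxO target, read 4666, 4782, 5282 and 4176 in induced hearts, against 2734, 1469, 2197 and 1433 in control hearts (log2 change 1.30 ± 0.27, adjusted p = 0.00536), and Sesn3, a sestrin, rose by 0.48. Foxo1 itself was not called (-0.12, adjusted p = 0.746), and the brightest probe set of Foxo3 was not either (-0.10, adjusted p = 0.907), while its dimmer probe set fell (-0.83, adjusted p = 0.00104). Of the core autophagy genes, 1 of 36 measured genes rose (2.78%) and 6 fell (16.7%), among them Gabarap, a relative of Gabarapl1 (-0.59), with a median of -0.06 (0.03 under median scaling). The FoxO list had 1 higher and 5 lower without the Xist hearts, 0 and 4 without the atrial hearts, and 3 and 4 under median scaling. Autophagy genes had 0 higher and 3 lower without the Xist hearts, 1 and 4 without the atrial hearts, and 1 and 3 under median scaling. Once both Xist hearts were left out, the calls of Klf15, Fbxo32, Gabarapl1, Ulk1, Sesn3, Foxo3 and Gabarap remained. Those of Bcl2l11 and Pdk4 ended (adjusted p 0.0722 to 0.0924). With both atrial hearts left out, the calls of Bcl2l11, Pdk4 and Sesn3 ended (adjusted p 0.0526 to 0.0641). Sesn3 lost its call without induced heart 1 or 4, or control heart 2 (adjusted p up to 0.0794). Trim63 was called with quantile normalization (-0.54, adjusted p = 0.0154).

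Among insulin-like growth factor genes themselves, 2 of 9 measured genes rose (22.2%, against 3.69% of all genes measured) and 0 fell (0 lower at an unadjusted p under 0.05). The calls were Igfbp5, a secreted binding protein, at 5136, 2256, 3386 and 3104 in induced hearts, against 1190.0, 670, 942 and 1670.5 in control hearts (log2 change 1.60 ± 0.28, adjusted p = 0.00156), and Igfbp7 (log2 change 0.55 ± 0.11, adjusted p = 0.00327). The growth factor and its receptor were not called, with log2 changes of 0.07 for Igf1 and -0.31 for Igf1r. Of VEGF, apelin and angiopoietin genes, 0 of 26 measured genes rose (1 higher at an unadjusted p under 0.05) and 1 fell (3.85%). The fall was that of Vegfb, a ligand of the receptor Flt1 that heart muscle makes in quantity (2427, 2509, 2611 and 1943 in induced hearts, against 4496, 3904, 3988 and 4701 in control hearts; log2 change -0.84 ± 0.11, adjusted p = 0.00013), and Vegfa was not called (-0.25, adjusted p = 0.352). Among receptors and G protein genes, 3 of 49 measured genes rose (6.12%) and 2 fell (4.08%). Gnb3, a G protein beta subunit, read 106, 225, 106 and 91.8 in induced hearts, against 806, 1153, 481 and 597 in control hearts (log2 change -2.14 ± 0.23, adjusted p = 1.51e-05), without overlap between the groups, and Adcy7, an adenylyl cyclase, rose (log2 change 1.35 ± 0.21, adjusted p = 0.000494). Receptor and G protein genes had 2 higher and 1 lower without the Xist hearts, 2 and 1 without the atrial hearts, and 3 and 1 under median scaling. In the fit without both Xist hearts, the calls of Igfbp5, Igfbp7, Vegfb, Gnb3 and Adcy7 remained.

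Many genes of cell division rose. Of the mitotic genes, 15 of 46 measured genes rose (32.6%) and 0 fell (0 lower at an unadjusted p under 0.05), with a median log2 change of 0.44. Of the replication genes, 6 of 45 measured genes rose (13.3%) and 0 fell (0 lower at an unadjusted p under 0.05), with a median of 0.19. Mcm6, a subunit of the helicase that opens DNA at replication origins, read 369, 337, 430 and 409 in induced hearts, against 13.5, 24.5, 16.8 and 20.5 in control hearts (log2 change 2.66 ± 0.29, adjusted p = 1.57e-05). Ube2c, which feeds the anaphase-promoting complex, read 285, 397, 230 and 273 in induced hearts, against 154, 46.4, 21.3 and 17.9 in control hearts (log2 change 1.79 ± 0.29, adjusted p = 0.000978). Mki67, the source of the Ki-67 antigen of cycling cells, read 436, 412, 395 and 276 in induced hearts, against 112, 60.4, 57.8 and 91.1 in control hearts (log2 change 1.72 ± 0.30, adjusted p = 0.00156). Cdk1, the kinase of entry into mitosis, read 327, 490, 300 and 310 in induced hearts, against 75.4, 125, 64.2 and 229 in control hearts (log2 change 1.30 ± 0.31, adjusted p = 0.0139). In each of these genes every induced heart was above every control heart. Top2a, which untangles DNA before division, rose by a log2 change of 1.27, Ccnb2, a cyclin partner of Cdk1, by 1.78, and the proteins of the midzone of the dividing cell by 1.39 for Birc5 and 1.19 for Prc1 (adjusted p 0.00104 to 0.00646). Other helicase subunits rose by 1.52 for Mcm2, 0.63 for Mcm3 and 0.54 for Mcm7 (adjusted p 0.00383 to 0.0448), and Rrm2, which makes deoxynucleotides, by 0.66. Cdca8, a partner of Birc5 on the chromosomal passenger complex, rose on chip 430B at 310, 289, 265 and 292 in induced hearts, against 76.5, 22, 64.5 and 81.4 in control hearts (log2 change 2.14 ± 0.29, adjusted p = 0.000447). Of the 15 mitotic genes that rose, 6 had a control mean under the filter level. The signal comes from the whole heart, and which cells carried it was not measured. Of G1 regulators, 2 of 33 measured genes rose (6.06%) and 3 fell (9.09%), with a median of 0.19. Cdkn1a, the cell cycle inhibitor p21, read 952, 948, 893 and 735 in induced hearts, against 460, 320, 187 and 306 in control hearts (log2 change 1.38 ± 0.20, adjusted p = 0.000336), and Rbl2, a pocket protein of resting cells, fell (-0.66, adjusted p = 0.00499). Mitotic genes had 8 higher and 0 lower without the Xist hearts, 9 and 0 without the atrial hearts, and 19 and 0 under median scaling. Replication genes had 1 higher and 0 lower without the Xist hearts, 2 and 0 without the atrial hearts, and 7 and 0 under median scaling. G1 regulators had 1 higher and 0 lower without the Xist hearts, 1 and 2 without the atrial hearts, and 2 and 2 under median scaling. When both Xist hearts were dropped, the calls of Mcm6, Ube2c, Mki67, Cdk1, Top2a, Cdca8 and Cdkn1a remained. Those of Ccnb2, Birc5, Prc1, Mcm2, Mcm3, Mcm7, Rrm2 and Rbl2 ended (adjusted p 0.051 to 0.201). When both atrial hearts were dropped, the calls of Prc1, Mcm3, Mcm7 and Rrm2 ended (adjusted p 0.055 to 0.156). Cdk1 lost its call without control heart 3 (adjusted p up to 0.0546). Mcm3 lost its call without induced heart 1, 2, 3 or 4, or control heart 1, 2, 3 or 4 (adjusted p up to 0.115). Mcm7 lost its call without induced heart 1, 3 or 4, or control heart 3 or 4 (adjusted p up to 0.0777). Control hearts had mean signals under the filter level for Mcm6, Ube2c, Mki67, Ccnb2 and Birc5, so these probe sets were kept through the signal of other hearts and the log2 changes are set against dim signal.

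Promoters of these division genes are shown because members of the group rose together. Replication genes are known targets of E2F factors, and genes of mitosis often carry a cell cycle homology region near the start. In the 250 bases before the start, RefSeq on GRCm38.p6, either strand was searched for E2F letters (TTTCCCGC, TTTGGCGC or TTTCGCGC) and for the core of the homology region (TTTGAA). E2F letters stood in 7 of 46 promoters of the measured replication genes (15.2%), against 2.47% of promoters of all genes measured and 1.53% of all 32851 promoters. They stood in 2 of 7 promoters of the replication genes that rose. TTTGAA stood in 17 of 42 promoters of the measured mitotic genes (40.5%), against 11.1% and 16%, and in 8 of 15 promoters of those that rose. Promoters were matched by symbol for 38 of 45 replication genes and 38 of 46 mitotic genes. Matches on opposite strands can overlap, as 2 of them do in Mcm6, and a match describes the sequence, not a bound site. In the sequences below, 5′ to 3′, capitals mark E2F letters in Mcm6 and the TTTGAA core in Cdk1, Top2a and Ube2c, on either strand.
Mcm6, chr1:128359706-128359955, reverse strand: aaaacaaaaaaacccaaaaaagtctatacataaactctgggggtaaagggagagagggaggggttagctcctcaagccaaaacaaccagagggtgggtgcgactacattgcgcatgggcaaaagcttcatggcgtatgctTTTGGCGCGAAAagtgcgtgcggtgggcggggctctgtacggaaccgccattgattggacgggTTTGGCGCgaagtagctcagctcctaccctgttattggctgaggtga
Cdk1, chr10:69352913-69353162, reverse strand: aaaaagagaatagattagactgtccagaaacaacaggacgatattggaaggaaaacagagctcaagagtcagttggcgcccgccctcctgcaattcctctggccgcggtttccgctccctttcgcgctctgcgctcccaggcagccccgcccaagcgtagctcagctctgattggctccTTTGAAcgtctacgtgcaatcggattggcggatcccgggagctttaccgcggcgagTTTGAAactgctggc
Top2a, chr11:99024190-99024439, reverse strand: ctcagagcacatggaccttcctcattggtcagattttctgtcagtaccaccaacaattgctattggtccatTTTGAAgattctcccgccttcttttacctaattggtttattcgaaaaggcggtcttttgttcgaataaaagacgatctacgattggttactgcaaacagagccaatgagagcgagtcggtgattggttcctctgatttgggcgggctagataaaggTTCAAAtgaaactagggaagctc
Ube2c, chr2:164769679-164769928, forward strand: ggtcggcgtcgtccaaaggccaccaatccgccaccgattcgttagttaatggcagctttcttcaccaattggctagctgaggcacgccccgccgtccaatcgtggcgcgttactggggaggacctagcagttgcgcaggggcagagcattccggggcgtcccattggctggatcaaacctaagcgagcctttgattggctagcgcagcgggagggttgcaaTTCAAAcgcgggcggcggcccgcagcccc

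**Figure D3:**
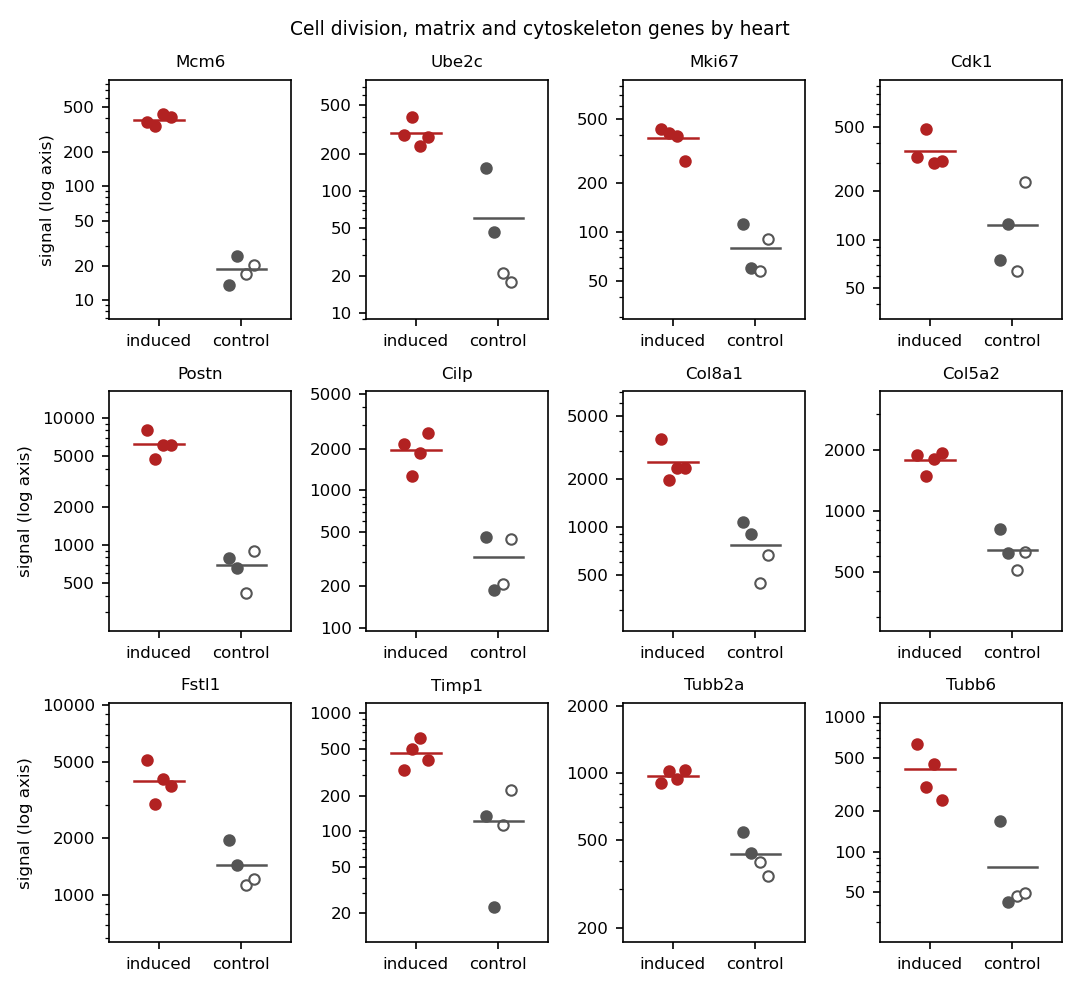
Deposited signal on a log axis of 12 genes of cell division, matrix and cytoskeleton in each of 4 induced (red) and 4 control (grey) hearts, with Xist hearts drawn as open points and the group mean as a line. Postn, Mcm6 and Cilp show the widest gaps, and in each of these panels the groups do not overlap.

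Many extracellular matrix genes rose. Of the collagen chains, 13 of 35 measured genes rose (37.1%) and 0 fell (1 lower at an unadjusted p under 0.05), with a median log2 change of 0.46. Col8a1, a network collagen of injured vessels and hearts, read 3539, 1963, 2349 and 2335 in induced hearts, against 1071, 906, 444 and 665 in control hearts (log2 change 1.69 ± 0.22, adjusted p = 0.000102). Col5a2, which starts fibrils, read 1878, 1477, 1795 and 1933 in induced hearts, against 811, 622, 511 and 626 in control hearts (log2 change 1.40 ± 0.19, adjusted p = 0.000129). All induced hearts were above all control hearts in both. The main fibril chains rose by 0.88 for Col1a1, 0.91 for Col1a2 and 0.75 for Col3a1 (adjusted p 0.00308 to 0.0256), and basement membrane chains by 0.88 for Col4a1, 0.87 for Col4a2 and 0.85 for Col4a5 (adjusted p 0.000978 to 0.019). In Col1a1 the hearts of the groups overlapped. Among matricellular proteins, 5 of 24 measured genes rose (20.8%) and 1 fell (4.17%). Postn, periostin, a secreted protein of activated fibroblasts and remodelling valves, read 8089, 4801, 6110.1 and 6146 in induced hearts, against 794, 662, 423 and 900 in control hearts (log2 change 3.11 ± 0.21, adjusted p = 7.94e-08), the largest change of a matrix gene on chip 430A. Cilp, a matrix protein that binds TGF-beta, read 2152, 1259.7, 1860.1 and 2612 in induced hearts, against 460, 190, 210 and 442 in control hearts (log2 change 2.61 ± 0.26, adjusted p = 1.32e-05). Thbs4, a thrombospondin, rose by 1.71 and Cthrc1, a protein of collagen-making fibroblasts, by 1.52, both with overlap between the hearts of the groups. Thbs2, also a thrombospondin, fell (-0.60, adjusted p = 0.0439), likewise with overlap. Enzymes and proteoglycans that handle collagen followed, in that 10 of 38 measured genes rose (26.3%) and 2 fell (5.26%). Lox, which cross-links collagen, rose by a log2 change of 1.00, Serpinh1, the collagen chaperone of the endoplasmic reticulum, by 0.65, Pcolce, which speeds the trimming of procollagen, by 0.83, and proteoglycans by 1.10 for Vcan and 0.88 for Aspn (adjusted p 0.000589 to 0.0105). Sdc4, a syndecan of focal adhesions, fell (log2 change -1.15 ± 0.16, adjusted p = 0.000271). Collagen chains had 6 higher and 0 lower without the Xist hearts, 6 and 0 without the atrial hearts, and 14 and 0 under median scaling. Matricellular proteins had 2 higher and 0 lower without the Xist hearts, 2 and 1 without the atrial hearts, and 5 and 0 under median scaling. Proteoglycans and collagen enzymes had 4 higher and 1 lower without the Xist hearts, 7 and 1 without the atrial hearts, and 11 and 1 under median scaling. With both Xist hearts left out, the calls of Col8a1, Col5a2, Col3a1, Col4a5, Postn, Cilp, Lox, Serpinh1, Vcan and Sdc4 remained. Those of Col1a1, Col1a2, Col4a1, Col4a2, Thbs4, Cthrc1, Thbs2, Pcolce and Aspn ended (adjusted p 0.0613 to 0.406). Without the atrial hearts, the calls of Col1a1, Col4a1, Col4a2, Thbs4 and Cthrc1 ended (adjusted p 0.0574 to 0.195). Col1a1 lost its call without induced heart 1, 3 or 4, or control heart 2 or 3 (adjusted p up to 0.092). Col4a2 lost its call without induced heart 3, or control heart 3 or 4 (adjusted p up to 0.076). Thbs4 lost its call without induced heart 3 or 4, or control heart 3 or 4 (adjusted p up to 0.0561). Cthrc1 lost its call without induced heart 1, 2 or 3, or control heart 2, 3 or 4 (adjusted p up to 0.107). Thbs2 lost its call without induced heart 1, 3 or 4, or control heart 1, 2 or 3 (adjusted p up to 0.141). Control hearts had mean signals under the filter level for Thbs4 and Cthrc1, so these probe sets were kept through the signal of other hearts and the log2 changes are set against dim signal.

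Inhibitors of matrix breakdown split. Timp1 read 328, 497, 614 and 402 in induced hearts, against 134, 22.7, 112 and 223 in control hearts (log2 change 1.68 ± 0.39, adjusted p = 0.0106). Timp3 read 780, 522, 856 and 881 in induced hearts, against 1193, 2369.5, 1729 and 3265 in control hearts (log2 change -1.37 ± 0.29, adjusted p = 0.00669). Timp4, an inhibitor known for its high level in heart, read 146, 103, 155 and 199 in induced hearts, against 226, 617, 368 and 222 in control hearts (log2 change -0.94 ± 0.24, adjusted p = 0.018), and Timp2 fell too (-0.64, adjusted p = 0.00845). Of the metalloproteases the membrane-bound Mmp14 rose (0.58, adjusted p = 0.0436), and over the whole list 2 of 31 measured genes rose (6.45%) and 3 fell (9.68%). Laminins, basement membrane and elastic fibre genes also went both ways: 5 of 25 measured genes rose (20%) and 4 fell (16%). Proteins of microfibrils and elastic fibres rose by 1.14 for Mfap5 and 0.67 for Fbln2 (adjusted p 0.0133 to 0.0148), and Fbln1, another fibulin, fell (adjusted p = 0.0141). Among TGF-beta, endothelin and angiotensin genes, 3 of 33 measured genes rose (9.09%) and 1 fell (3.03%). The TGF-beta ligands were not called (0.34 for Tgfb1, 0.35 for Tgfb2 and 0.20 for Tgfb3). Fstl1, a secreted follistatin-like protein, read 5127, 3008, 4095 and 3759 in induced hearts, against 1959.5, 1437, 1131 and 1215 in control hearts (log2 change 1.45 ± 0.20, adjusted p = 0.00016). Inhba, an activin subunit, rose (0.76, adjusted p = 0.00359), and Agtr1a, the angiotensin receptor, fell (-0.72, adjusted p = 0.00791). Of markers of resident fibroblasts, 6 of 23 measured genes rose (26.1%) and 4 fell (17.4%), with a median of -0.08 (0.01 under median scaling) and of 0.07 without the Xist hearts. Pdgfra, a defining receptor of fibroblasts, was not called (-0.49, adjusted p = 0.278), while the markers that rose included 0.72 for Cd34, 0.68 for Col15a1 and 0.83 for Pi16 and those that fell -0.70 for Gsn, -0.73 for Clec3b and -0.65 for Htra3. The part of fibroblast number in the matrix result was not tested. The metalloprotease list had 1 higher and 1 lower without the Xist hearts, 1 and 2 without the atrial hearts, and 3 and 3 under median scaling. The laminin list had 1 higher and 0 lower without the Xist hearts, 1 and 0 without the atrial hearts, and 5 and 2 under median scaling. The TGF-beta list had 2 higher and 1 lower without the Xist hearts, 3 and 1 without the atrial hearts, and 4 and 1 under median scaling. Fibroblast markers had 4 higher and 1 lower without the Xist hearts, 4 and 1 without the atrial hearts, and 7 and 4 under median scaling. Once both Xist hearts were left out, the calls of Timp1, Timp4, Mfap5, Fstl1, Agtr1a, Cd34, Col15a1 and Htra3 remained. Those of Timp3, Timp2, Mmp14, Fbln2, Fbln1, Inhba, Pi16, Gsn and Clec3b ended (adjusted p 0.0508 to 0.391). With both atrial hearts left out, the calls of Timp3, Mmp14, Fbln2, Fbln1, Pi16, Gsn and Clec3b ended (adjusted p 0.0503 to 0.27). Timp4 lost its call without induced heart 2, or control heart 2 or 3 (adjusted p up to 0.0609). Mmp14 lost its call without induced heart 1 or 3, or control heart 1, 3 or 4 (adjusted p up to 0.143). Mfap5 lost its call without control heart 2 (adjusted p up to 0.0511). Fbln1 lost its call without induced heart 1, or control heart 4 (adjusted p up to 0.0572).

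A number of cytoskeletal genes rose. Of the tubulins and microtubule proteins, 7 of 32 measured genes rose (21.9%) and 0 fell (2 lower at an unadjusted p under 0.05), with a median of 0.26. Tubb2a, a beta-tubulin that builds microtubules, read 904, 1016, 939 and 1034 in induced hearts, against 541, 436, 395 and 344 in control hearts (log2 change 1.11 ± 0.17, adjusted p = 0.000627). Tubb6 read 636, 304, 451 and 243 in induced hearts, against 170, 42.3, 47.1 and 49.1 in control hearts (log2 change 1.88 ± 0.35, adjusted p = 0.00257). Other tubulins had smaller rises of 0.76 for Tubb5, 0.67 for Tubb4b and 0.58 for Tuba1a (adjusted p 0.00245 to 0.0225). Of actin regulators and filaments, 11 of 47 measured genes rose (23.4%) and 1 fell (2.13%). Tpm4, a non-muscle tropomyosin, rose by a log2 change of 0.82, Cfl1, which severs actin filaments, by 0.78, Tagln2, a transgelin, by 0.74, and Vim, the filament of mesenchymal cells, by 0.73 (adjusted p 0.00156 to 0.0156). Of integrins and focal adhesion proteins, 4 of 39 measured genes rose (10.3%) and 0 fell (1 lower at an unadjusted p under 0.05). These were Csrp2, a LIM protein (0.88), Vcl, vinculin (0.52), Itga7, the laminin receptor of muscle (0.46), and Itgb1bp2, melusin, a muscle protein that binds integrin (0.46; adjusted p 0.013 to 0.0419). Tubulins and microtubule proteins had 2 higher and 0 lower without the Xist hearts, 4 and 0 without the atrial hearts, and 7 and 0 under median scaling. Actin regulators and filaments had 4 higher and 0 lower without the Xist hearts, 4 and 0 without the atrial hearts, and 11 and 1 under median scaling. Integrins and adhesion proteins had 1 higher and 0 lower without the Xist hearts, 1 and 0 without the atrial hearts, and 3 and 0 under median scaling. In the fit without both Xist hearts, the calls of Tubb2a, Tpm4, Tagln2 and Csrp2 remained. Those of Tubb6, Tubb5, Tubb4b, Tuba1a, Cfl1, Vim, Vcl, Itga7 and Itgb1bp2 ended (adjusted p 0.051 to 0.341). Once both atrial hearts were left out, the calls of Tubb4b, Tuba1a, Cfl1, Vcl, Itga7 and Itgb1bp2 ended (adjusted p 0.0518 to 0.273). Tuba1a lost its call without induced heart 1 or 3, or control heart 2 or 4 (adjusted p up to 0.0687). Vim lost its call without control heart 3 (adjusted p up to 0.0616). Csrp2 lost its call without induced heart 1, 3 or 4, or control heart 1, 2 or 3 (adjusted p up to 0.0764). Vcl lost its call without induced heart 1, 3 or 4, or control heart 2, 3 or 4 (adjusted p up to 0.124). Itga7 lost its call without induced heart 1, 2 or 3, or control heart 1, 2 or 4 (adjusted p up to 0.139). Control hearts had mean signals under the filter level for Tubb6, so this probe set was kept through the signal of other hearts and the log2 change is set against dim signal.

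The major sarcomere genes of the adult heart were not called, and a few muscle genes changed by large factors. Of the cardiac myosin, actin and troponin isoforms, 0 of 23 measured genes rose (2 higher at an unadjusted p under 0.05) and 2 fell (8.7%). The major contractile genes had log2 changes of 0.03 for Myh6, -0.19 for Myl2, -0.03 for Tnnt2, -0.12 for Tnni3, -0.02 for Actc1 and -0.09 for Ttn, and these were not called. Of markers of heart failure and of the fetal program, Myh7, Acta1, Nppb and Nppa were not called upward with all hearts. Among natriuretic peptide and wall stress genes, 2 of 17 measured genes rose (11.8%) and 3 fell (17.6%). Their log2 changes ran from -1.82 to 3.11. Without the Xist hearts that list had 2 higher and 1 lower, and without the atrial hearts 2 and 0. Under median scaling it had 2 and 1. Myh7, the slow myosin, read 1456, 843, 856 and 817 in induced hearts, against 4474, 1559, 999.8 and 893 in control hearts (log2 change -0.69 ± 0.45, adjusted p = 0.389). Acta1, skeletal actin, read 28258, 20446, 16037 and 14439.7 in induced hearts, against 20939.9, 14032, 6766 and 11937 in control hearts (log2 change 0.62 ± 0.26, adjusted p = 0.147). Nppb, the natriuretic peptide BNP, read 2031, 1849.5, 1238 and 1252 in induced hearts, against 7635, 3902, 1469 and 2869.9 in control hearts (log2 change -1.09 ± 0.38, adjusted p = 0.085), and without the Xist hearts it was called lower (log2 change -1.78, adjusted p = 0.0168). Nppa was not called (log2 change -0.52 ± 0.68, adjusted p = 0.698), with its highest value, 26347, in control heart 4. Corin, the protease that cuts the natriuretic peptides to their active form, fell (151, 138, 212 and 127 in induced hearts, against 430, 332, 1139 and 1211 in control hearts; log2 change -1.82 ± 0.42, adjusted p = 0.0109). Myom2, an M-band protein that ties myosin filaments together in fast and adult heart muscle, read 246, 79.3, 459 and 275 in induced hearts, against 6706, 3588, 4809 and 3492 in control hearts (log2 change -4.01 ± 0.32, adjusted p = 4.19e-07), the largest fall on chip 430A, and its probe set on chip 430B also fell (-3.78, adjusted p = 2.52e-05). The kinases of the myosin light chain fell as well. Mylk3, the cardiac one, read 1114, 935, 1159.6 and 847 in induced hearts, against 2735, 1540.1, 2557 and 2403 in control hearts (log2 change -1.16 ± 0.17, adjusted p = 0.00105). Mylk4 read 182, 157, 181 and 105 in induced hearts, against 901, 1071, 1203 and 1271 in control hearts (log2 change -2.75 ± 0.20, adjusted p = 2.88e-07). When both Xist hearts were dropped, the calls of Myom2 on chip 430A, Myom2 on chip 430B, Mylk3 and Mylk4 remained. That of Corin ended (adjusted p = 0.258). When both atrial hearts were dropped, the call of Corin ended (adjusted p = 0.064). Acta1 passed the threshold without control heart 1. Nppb passed the threshold without control heart 3. Acta1 was called with quantile normalization (0.63, adjusted p = 0.0385).

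Genes best known from fast skeletal muscle rose in a small set. Myl1, the fast alkali light chain, read 12332, 11318, 12138 and 13848 in induced hearts, against 2435, 1477, 2109.5 and 3491 in control hearts (log2 change 2.42 ± 0.21, adjusted p = 1.06e-06). Casq1, the calcium store protein of fast fibres, read 6137, 5656, 6743 and 4288 in induced hearts, against 3075, 1346, 576 and 586 in control hearts (log2 change 2.31 ± 0.34, adjusted p = 0.000336). Ryr1, their calcium release channel, read 934, 375, 558 and 1438 in induced hearts, against 156, 33.3, 89.9 and 69.8 in control hearts (log2 change 2.59 ± 0.36, adjusted p = 0.000201). All induced hearts lay above all control hearts in the 3 genes, although Casq1 was far higher in control heart 1 than in control heart 2, 3 or 4. Among 18 measured genes of the fast-fibre list these 3 rose (16.7%, against 3.69% of all genes measured) and 0 fell (0 lower at an unadjusted p under 0.05). Of 9 genes picked from that list as marks of fast fibres (Myh1, Myh2, Myh4, Tnnt3, Tnni2, Tnnc2, Mylpf, Pvalb and Actn3) 8 were too dim to be kept, with no signal above 175 in an induced heart or 168 in a control heart. Mybpc2, also on the list, was kept and not called. It read 2249, 1856, 1660.1 and 1357 in induced hearts, against 2220.2, 522, 617 and 749 in control hearts. Atp2a1, the fast-fibre calcium pump, was not called (-0.30, adjusted p = 0.277). Within calcium handling genes of the heart, 5 of 37 measured genes rose (13.5%) and 2 fell (5.41%). The cardiac forms of the channel and of the store protein rose by 0.90 for Ryr2 and 0.69 for Casq2 (adjusted p 0.000217 to 0.0177), Pln, the brake on the calcium pump, fell (-0.39, adjusted p = 0.0457), and Atp2a2, the pump itself, was not called (-0.16, adjusted p = 0.639). Trdn, triadin, which ties the store protein to the channel, gave opposite calls. The first of its probe sets read 5918, 1792, 3045 and 1306 in induced hearts, against 357, 46.3, 205 and 71.2 in control hearts (log2 change 3.80 ± 0.44, adjusted p = 2.88e-05), the largest rise on chip 430A, and the second rose too (1.25, adjusted p = 0.000507). The third read 373, 364, 302 and 335 in induced hearts, against 696, 626, 671 and 584 in control hearts (log2 change -0.82 ± 0.21, adjusted p = 0.0205). Which transcript forms these probe sets read was not analysed here. Calcium handling genes had 3 higher and 0 lower without the Xist hearts, 3 and 0 without the atrial hearts, and 5 and 0 under median scaling. With both Xist hearts left out, the calls of Myl1, Casq1, Ryr1, Ryr2, the first Trdn probe set and the second Trdn probe set remained. Those of Casq2, Pln and the third Trdn probe set ended (adjusted p 0.102 to 0.165). Without the atrial hearts, the calls of Casq2, Pln and the third Trdn probe set ended (adjusted p 0.0905 to 0.207). Casq2 lost its call without induced heart 1, or control heart 2 or 4 (adjusted p up to 0.0629). Pln lost its call without induced heart 3 or 4, or control heart 1, 2 or 4 (adjusted p up to 0.145). The third Trdn probe set lost its call without induced heart 3, or control heart 3 (adjusted p up to 0.066). Control hearts had mean signals under the filter level for Ryr1, so this probe set was kept through the signal of other hearts and the log2 change is set against dim signal.

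**Figure D4:**
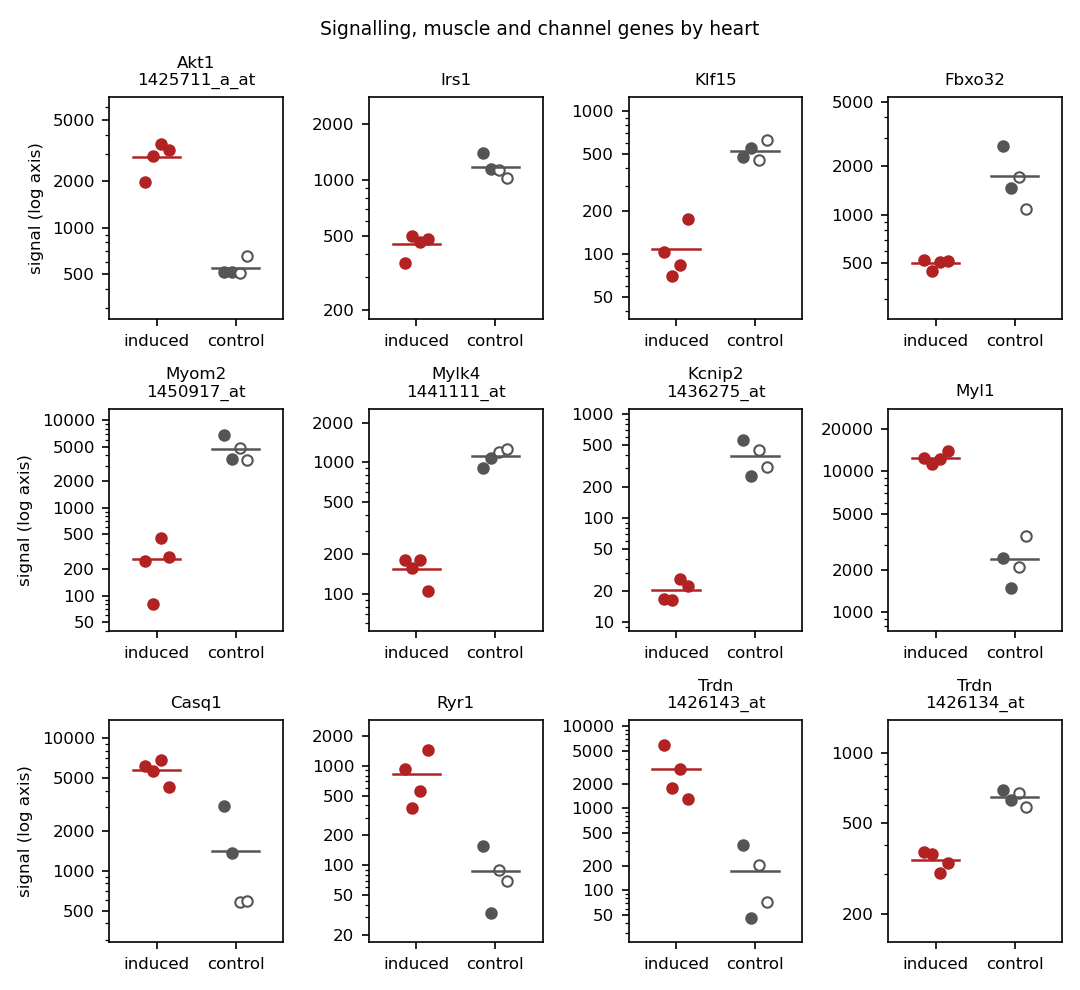
Deposited signal on a log axis of 12 probe sets of muscle, channel and signalling genes in each of 4 induced (red) and 4 control (grey) hearts, with Xist hearts as open points and the group mean as a line. Myom2 and Kcnip2 fall below all control hearts, Myl1, Casq1 and Ryr1 rise above them, and the 2 Trdn probe sets go opposite ways.

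Of channel genes, 1 of 67 measured genes rose (1.49%) and 4 fell (5.97%), against 3.69% and 2.90% of all genes measured. The median was -0.07 (0.01 under median scaling). With so few calls, single genes are given rather than a result for the family. Abcc8, a sulfonylurea receptor subunit of ATP-sensitive potassium channels, read 156, 42.9, 183 and 190 in induced hearts, against 427, 393, 454 and 455 in control hearts (log2 change -1.41 ± 0.22, adjusted p = 0.000494). Abcc9, the other such subunit, read 566, 758, 663 and 903 in induced hearts, against 1400.2, 1547, 1547 and 1164 in control hearts (log2 change -0.93 ± 0.16, adjusted p = 0.00116). Kcnj11, the pore subunit Kir6.2, fell too (-0.69, adjusted p = 0.0426). Kcnq1, of the slow delayed rectifier, fell (-0.68, adjusted p = 0.0149), and Kcnk2, a stretch-sensitive background channel, rose (log2 change 0.97 ± 0.14, adjusted p = 0.000357). Kcnip2, the partner that brings the transient outward channel to the surface, read 16.8, 16.5, 26 and 22.2 in induced hearts, against 558, 251, 453 and 309 in control hearts on chip 430B (log2 change -3.58 ± 0.67, adjusted p = 0.00755), with no overlap, whereas its probe set on chip 430A was not called (-0.44, adjusted p = 0.262). Gja1, connexin 43 of the gap junctions, read 4142, 3493, 3878 and 3969.8 in induced hearts, against 8470.1, 5097, 6308 and 5070.5 in control hearts (log2 change -0.65 ± 0.15, adjusted p = 0.00884), and over the intercalated disc genes 1 of 24 measured genes rose (4.17%) and 2 fell (8.33%). Channel genes had 2 higher and 2 lower without the Xist hearts, 1 and 3 without the atrial hearts, and 1 and 3 under median scaling. Intercalated disc genes had 0 higher and 2 lower without the Xist hearts, 0 and 2 without the atrial hearts, and 0 and 1 under median scaling. Once both Xist hearts were left out, the calls of Abcc8, Abcc9, Kcnk2 and Gja1 remained. Those of Kcnj11, Kcnq1 and Kcnip2 ended (adjusted p 0.0624 to 0.209). With both atrial hearts left out, the call of Kcnj11 ended (adjusted p = 0.0906). Kcnj11 lost its call without induced heart 1, 2 or 4, or control heart 1, 2, 3 or 4 (adjusted p up to 0.138). Kcnq1 lost its call without induced heart 4, or control heart 3 (adjusted p up to 0.0588). Induced hearts had mean signals under the filter level for Kcnj11 and Kcnip2, so these probe sets were kept through the signal of other hearts and the log2 changes are set against dim signal.

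Several genes that govern energy metabolism fell. Of transcriptional regulators of mitochondrial and metabolic genes, 1 of 41 measured genes rose (2.44%) and 7 fell (17.1%), with a median of -0.24. Ppara, the nuclear receptor of fatty acid oxidation, read 400, 121, 382 and 274 in induced hearts, against 1012, 665, 1031 and 853 in control hearts (log2 change -1.53 ± 0.25, adjusted p = 0.000862). Ppargc1a, the coactivator PGC-1alpha, read 754, 550, 627 and 368 in induced hearts, against 954, 924, 1172 and 1044 in control hearts (log2 change -0.81 ± 0.17, adjusted p = 0.00536). Esrrb, an orphan receptor, fell, with a log2 change of -1.03, as did Nrip1, a corepressor, with -0.89. Of fatty acid genes, 4 of 51 measured genes rose (7.84%) and 8 fell (15.7%), with a median of 0.03. Enzymes of the oxidation spiral that fell had log2 changes of -0.87 for Acadsb and -0.63 for Echs1, and Slc25a20, which carries acylcarnitine into mitochondria, rose (6822, 4746, 5629 and 4486 in induced hearts, against 2487, 2385, 2616 and 1564 in control hearts; log2 change 1.25 ± 0.22, adjusted p = 0.0016). In branched-chain amino acid and ketone oxidation 0 of 24 measured genes rose (0 higher at an unadjusted p under 0.05) and 5 fell (20.8%), led by Ppm1k, the phosphatase that activates the branched-chain dehydrogenase (log2 change -1.12 ± 0.21, adjusted p = 0.00697), and Ivd (-0.54, adjusted p = 0.00536), and the median was -0.24. Of tricarboxylic acid cycle and pyruvate dehydrogenase genes, 4 of 34 measured genes rose (11.8%) and 6 fell (17.6%). Idh2, the mitochondrial isocitrate dehydrogenase, fell (log2 change -0.80 ± 0.14, adjusted p = 0.00121), and Suclg1 rose (0.59, adjusted p = 0.00603). Regulators of metabolism had 0 higher and 2 lower without the Xist hearts, 0 and 6 without the atrial hearts, and 0 and 4 under median scaling. Fatty acid genes had 2 higher and 2 lower without the Xist hearts, 1 and 2 without the atrial hearts, and 3 and 1 under median scaling. Branched-chain and ketone genes had 0 higher and 2 lower without the Xist hearts, 0 and 2 without the atrial hearts, and 0 and 3 under median scaling. Tricarboxylic acid cycle genes had 1 higher and 1 lower without the Xist hearts, 0 and 3 without the atrial hearts, and 4 and 3 under median scaling. In the fit without both Xist hearts, the calls of Ppara, Acadsb, Slc25a20, Ivd, Idh2 and Suclg1 remained. Those of Ppargc1a, Esrrb, Nrip1, Echs1 and Ppm1k ended (adjusted p 0.051 to 0.185). Once both atrial hearts were left out, the calls of Echs1 and Suclg1 ended (adjusted p 0.0512 to 0.0718). Echs1 lost its call without induced heart 1 or 4, or control heart 4 (adjusted p up to 0.0676).

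Structural genes of respiration held few calls. Over all genes measured 3.69% rose and 2.90% fell, and with counts this small no difference between the complexes is read from the shares. Of respiratory complex I genes, 3 of 44 measured genes rose (6.82%) and 2 fell (4.55%). Of complexes II to V, 1 of 60 measured genes rose (1.67%) and 1 fell (1.67%), with medians of 0.11 for complex I and 0.04 for the other complexes. Of glucose genes, 4 of 45 measured genes rose (8.89%) and 5 fell (11.1%). The transporters fell: Slc2a4, GLUT4, the insulin-regulated transporter, read 1871, 1802, 1716 and 1607 in induced hearts, against 3698, 2692, 3052 and 2982 in control hearts (log2 change -0.80 ± 0.11, adjusted p = 0.000172). Slc2a1, GLUT1, read 184, 204, 202 and 147 in induced hearts, against 318, 492, 374 and 394 in control hearts (log2 change -0.92 ± 0.15, adjusted p = 0.00104). The groups did not overlap in either, while enzymes of glycolysis rose by 0.73 for Pgam1, 0.67 for Pfkp and 0.43 for Pkm (adjusted p 0.01 to 0.0229). Creatine genes were split: Ckb, the brain-type creatine kinase, read 2532, 2268, 3054 and 3372 in induced hearts, against 1288, 1216, 918 and 1113 in control hearts (log2 change 1.26 ± 0.15, adjusted p = 4.12e-05). Gamt, which makes creatine, rose (log2 change 1.04 ± 0.12, adjusted p = 4.12e-05), and Slc6a8, which takes it up, fell (log2 change -0.52 ± 0.11, adjusted p = 0.00806). Ckm, the muscle kinase, was not called (-0.05, adjusted p = 0.871). Of genes of fatty acid and sterol synthesis, 4 of 45 measured genes rose (8.89%) and 3 fell (6.67%). Fasn, fatty acid synthase, rose by 1.42 and Scd2, a desaturase, by 1.60 (adjusted p 1.47e-05 to 0.0361), and Fdft1, squalene synthase, fell (-0.84, adjusted p = 0.00281). Among iron genes Tfrc, the transferrin receptor, read 2394, 2410.1, 3163 and 3360.1 in induced hearts, against 1511, 872, 993 and 752 in control hearts (log2 change 1.44 ± 0.18, adjusted p = 6.30e-05). Alas1, the first step of haem synthesis, rose (0.98, adjusted p = 4.98e-05). Over the iron and haem genes 3 of 28 measured genes rose (10.7%) and 2 fell (7.14%), with a median of 0.00. Without the Xist hearts 2 of them rose and 0 fell, likewise without the atrial hearts, and under median scaling 3 and 0. Of antioxidant genes, 5 of 39 measured genes rose (12.8%) and 8 fell (20.5%), the falls including -1.09 for Gstm1, -0.79 for Gstm2 and -0.56 for Gpx1 (adjusted p 9.54e-06 to 0.00587). Complex I genes had 2 higher and 0 lower without the Xist hearts, 2 and 1 without the atrial hearts, and 3 and 1 under median scaling. Glucose genes had 0 higher and 3 lower without the Xist hearts, 1 and 3 without the atrial hearts, and 4 and 4 under median scaling. Lipid synthesis genes had 1 higher and 2 lower without the Xist hearts, 3 and 2 without the atrial hearts, and 5 and 2 under median scaling. Antioxidant genes had 1 higher and 4 lower without the Xist hearts, 0 and 3 without the atrial hearts, and 4 and 4 under median scaling. When both Xist hearts were dropped, the calls of Slc2a4, Slc2a1, Ckb, Gamt, Slc6a8, Scd2, Fdft1, Tfrc, Alas1, Gstm1, Gstm2 and Gpx1 remained. Those of Pgam1, Pfkp, Pkm and Fasn ended (adjusted p 0.0659 to 0.225). When both atrial hearts were dropped, the calls of Pgam1, Pfkp, Pkm, Fasn and Gpx1 ended (adjusted p 0.0532 to 0.0718). Pgam1 lost its call without induced heart 2 or 3, or control heart 2 or 3 (adjusted p up to 0.0719). Pfkp lost its call without control heart 3 (adjusted p up to 0.0519). Fasn lost its call without induced heart 1, 3 or 4, or control heart 1, 2 or 3 (adjusted p up to 0.0994).

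**Figure D5:**
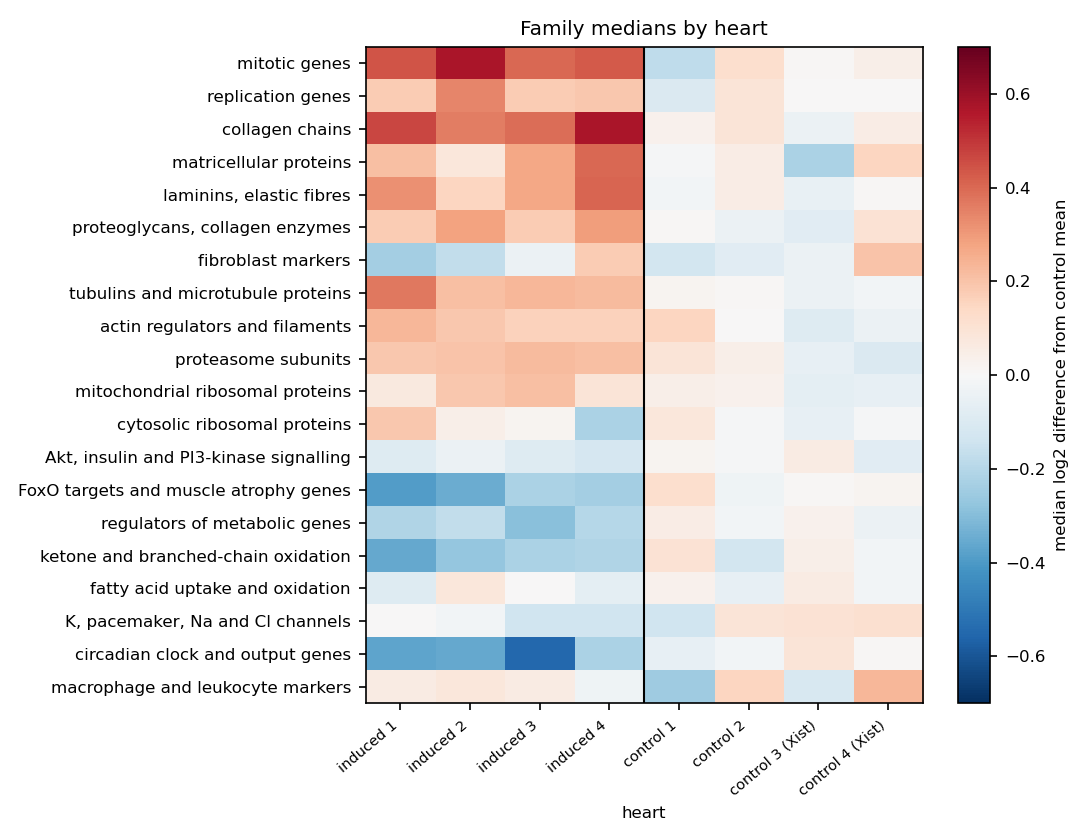
Median log2 difference from the mean of the control hearts over the genes of 20 families (rows) in each of 4 induced and 4 control hearts (columns), on a colour scale from blue (lower) to red (higher). Collagen chains, mitotic genes and tubulins are above 0 in all 4 induced hearts, and clock genes and regulators of metabolism below 0, while the control hearts spread around 0.

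Families of the protein-making machinery varied in their share of calls, against 3.69% higher and 2.90% lower over all genes measured. Of the cytosolic ribosomal proteins, 0 of 43 measured genes rose (3 higher at an unadjusted p under 0.05) and 0 fell (3 lower at an unadjusted p under 0.05), and the median was -0.01 (0.08 under median scaling). Of translation factors, 1 of 60 measured genes rose (1.67%) and 3 fell (5%), and the rise was that of the Y-linked Eif2s3y, which was near 0 in both Xist hearts, with 720, 617, 788 and 763 in induced hearts, against 430, 483, 2.8 and 3.6 in control hearts. An elongation factor and a helicase of initiation fell, with log2 changes of -0.41 for Eef2 and -0.50 for Eif4a2. Of mitochondrial ribosomal proteins, 7 of 76 measured genes rose (9.21%) and 0 fell (1 lower at an unadjusted p under 0.05), with a median of 0.13. The largest rises were 0.83 for Mrps9 and 0.71 for Mrps11 (adjusted p 0.00536 to 0.013). Of the aminoacyl-tRNA synthetases, 2 of 39 measured genes rose (5.13%) and 0 fell (0 lower at an unadjusted p under 0.05). Of serine, one-carbon and ATF4-pathway genes, 2 of 33 measured genes rose (6.06%) and 1 fell (3.03%). The bases TGATGCAA, known from ATF4 target promoters, stood on either strand in 5 of 33 promoters of the measured serine and ATF4-pathway genes, against 0.537% of promoters of all genes measured, and in 0 of 2 promoters of the members that rose and 0 of 1 of those that fell. For the measured aminoacyl-tRNA synthetases they stood in 2 of 32 promoters (6.25%), and in the 1 promoter matched to a member that rose. Nucleotide synthesis was divided, in that 3 of 31 measured genes rose (9.68%) and 4 fell (12.9%). Nme1, a nucleoside diphosphate kinase, rose by 1.15 and Gmps, which makes GMP, by 1.08 (adjusted p 0.000597 to 0.000627), and other enzymes of purine synthesis fell (-0.85 for Ppat and -0.83 for Adssl1). Translation factors had 0 higher and 0 lower without the Xist hearts, 0 and 0 without the atrial hearts, and 1 and 0 under median scaling. Mitochondrial ribosomal proteins had 0 higher and 0 lower without the Xist hearts, 0 and 0 without the atrial hearts, and 5 and 0 under median scaling. The serine and ATF4 list had 0 higher and 0 lower without the Xist hearts, 0 and 0 without the atrial hearts, and 2 and 0 under median scaling. Nucleotide synthesis genes had 2 higher and 2 lower without the Xist hearts, 3 and 2 without the atrial hearts, and 4 and 2 under median scaling. With both Xist hearts left out, the calls of Nme1, Gmps, Ppat and Adssl1 remained. Those of Eef2, Eif4a2, Mrps9 and Mrps11 ended (adjusted p 0.101 to 0.176). Without the atrial hearts, the calls of Eef2, Eif4a2, Mrps9 and Mrps11 ended (adjusted p 0.0606 to 0.132). Eif4a2 lost its call without induced heart 1, 3 or 4, or control heart 3 or 4 (adjusted p up to 0.0683). Mrps9 lost its call without induced heart 4, or control heart 4 (adjusted p up to 0.0527).

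Some genes of protein breakdown by the proteasome rose by small amounts. Of the proteasome subunits, 9 of 46 measured genes rose (19.6%) and 0 fell (2 lower at an unadjusted p under 0.05), with a median of 0.20. Psmd14, the deubiquitinase of the lid, read 2458, 3099, 2873 and 2680.5 in induced hearts, against 1714, 1779.5, 1432 and 1645 in control hearts (log2 change 0.74 ± 0.10, adjusted p = 0.000158). Psme4, the activator PA200, read 5882, 4368, 4443 and 4158 in induced hearts, against 3490.1, 2488, 2640.4 and 2439.8 in control hearts (log2 change 0.76 ± 0.13, adjusted p = 0.00154). Muscle ubiquitin ligases were divided, in that 3 of 28 measured genes rose (10.7%) and 4 fell (14.3%). Besides Fbxo32, the cullin adaptor Asb14 read 214, 236, 245 and 287 in induced hearts, against 781, 914, 797 and 762 in control hearts (log2 change -1.55 ± 0.14, adjusted p = 1.22e-06). Its relatives fell too, with log2 changes of -0.92 for Asb11 and -0.79 for Asb10, whereas Klhl41, a muscle kelch protein, rose (1.46, adjusted p = 0.022). Of endoplasmic reticulum chaperones, 5 of 44 measured genes rose (11.4%) and 1 fell (2.27%). Manf, a secreted stress protein, rose (log2 change 0.85 ± 0.16, adjusted p = 0.00258), and Hspa5, the main chaperone BiP, was not called (0.16, adjusted p = 0.622). Of the lysosomal pump and cathepsins, 4 of 42 measured genes rose (9.52%) and 0 fell (4 lower at an unadjusted p under 0.05). Of cytosolic heat shock proteins, 2 of 42 measured genes rose (4.76%) and 2 fell (4.76%). Proteasome subunits had 2 higher and 0 lower without the Xist hearts, 3 and 0 without the atrial hearts, and 11 and 0 under median scaling. Muscle ubiquitin ligases had 0 higher and 4 lower without the Xist hearts, 0 and 4 without the atrial hearts, and 3 and 3 under median scaling. Reticulum chaperones had 2 higher and 1 lower without the Xist hearts, 2 and 1 without the atrial hearts, and 6 and 1 under median scaling. The lysosomal list had 0 higher and 0 lower without the Xist hearts, 0 and 0 without the atrial hearts, and 5 and 0 under median scaling. Heat shock proteins had 0 higher and 1 lower without the Xist hearts, 0 and 0 without the atrial hearts, and 2 and 0 under median scaling. Once both Xist hearts were left out, the calls of Psmd14, Psme4, Asb14, Asb11, Asb10 and Manf remained. That of Klhl41 ended (adjusted p = 0.133). With both atrial hearts left out, the call of Klhl41 ended (adjusted p = 0.0612). Asb10 lost its call without induced heart 3, or control heart 3 (adjusted p up to 0.0554). Klhl41 lost its call without induced heart 2 or 3, or control heart 2 or 3 (adjusted p up to 0.0888).

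Of the 71 lists, clock and output genes had the highest share of falls: 0 of 19 measured genes rose (1 higher at an unadjusted p under 0.05) and 8 fell (42.1%), with a median of -0.42. Ciart, a repressor of the clock, read 117, 92.8, 161 and 149 in induced hearts, against 381, 455, 334 and 383 in control hearts (log2 change -1.51 ± 0.28, adjusted p = 0.00694). Hlf, an output factor related to Dbp, fell, with a log2 change of -0.90, as did Nr1d2, an orphan receptor of the loop, with -0.60 (adjusted p 0.00954 to 0.019). Dbp itself was not called by its brightest probe set (-1.02, adjusted p = 0.0718), while a dimmer probe set read 1068, 807, 1020.4 and 1317 in induced hearts, against 2362, 2244, 2523 and 2466 in control hearts (log2 change -1.17 ± 0.19, adjusted p = 0.00102). The activators of the loop were not called, with log2 changes of 0.53 for Arntl and 0.22 for Clock. No source used here gives the hour at which hearts were taken, and its part was not tested. Among stress lists, of immediate early genes, 1 of 25 measured genes rose (4%) and 1 fell (4%). Of growth arrest and p53 target genes, 4 of 26 measured genes rose (15.4%) and 5 fell (19.2%), led by Cdkn1a and, downward, Phlda1 (log2 change -1.28 ± 0.19, adjusted p = 0.000336). Clock genes had 0 higher and 2 lower without the Xist hearts, 0 and 1 without the atrial hearts, and 0 and 4 under median scaling. Growth arrest genes had 1 higher and 1 lower without the Xist hearts, 2 and 1 without the atrial hearts, and 4 and 2 under median scaling. In the fit without both Xist hearts, the calls of Ciart, Dbp and Phlda1 remained. Those of Hlf and Nr1d2 ended (adjusted p 0.169 to 0.193). Once both atrial hearts were left out, the calls of Hlf and Nr1d2 ended (adjusted p 0.0711 to 0.0717). Nr1d2 lost its call without induced heart 1 or 2, or control heart 3 (adjusted p up to 0.0739). Arntl passed the threshold without control heart 2. Dbp by its brightest probe set was called with a fit of the 8 arrays alone (-1.02, adjusted p = 0.0155). Dbp by its brightest probe set was called with a covariate for Actb degradation (-1.11, adjusted p = 0.00612).

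Immune lists gave almost no calls. Over all genes measured 3.69% rose and 2.90% fell, so lists of this size would hold few calls at those shares too. Of macrophage and leukocyte markers, 0 of 24 measured genes rose (1 higher at an unadjusted p under 0.05) and 0 fell (0 lower at an unadjusted p under 0.05). Of MHC class I and II genes, 0 of 22 measured genes rose (1 higher at an unadjusted p under 0.05) and 0 fell (3 lower at an unadjusted p under 0.05). Of interferon-responsive genes, 0 of 33 measured genes rose (4 higher at an unadjusted p under 0.05) and 0 fell (2 lower at an unadjusted p under 0.05). Of complement genes, 0 of 16 measured genes rose (0 higher at an unadjusted p under 0.05) and 0 fell (3 lower at an unadjusted p under 0.05). Medians were -0.03 (0.05 under median scaling) for leukocyte markers, -0.08 for MHC genes, 0.02 for interferon-responsive genes and -0.04 (0.05 under median scaling) for complement genes. Of chemokines, cytokines and receptors, 1 of 62 measured genes rose (1.61%) and 2 fell (3.23%), the rise being Tnfrsf12a, the receptor of TWEAK (log2 change 1.12 ± 0.28, adjusted p = 0.0179), whose hearts overlapped. Of the endothelial markers, 1 of 27 measured genes rose (3.7%) and 0 fell (0 lower at an unadjusted p under 0.05). Of smooth muscle and pericyte markers, 1 of 18 measured genes rose (5.56%) and 1 fell (5.56%). Genes that define endothelium were not called (-0.11 for Pecam1 and 0.06 for Cdh5). Of cardiomyocyte markers, 1 of 20 measured genes rose (5%) and 1 fell (5%). Of atrial markers, 0 of 14 measured genes rose (0 higher at an unadjusted p under 0.05) and 0 fell (1 lower at an unadjusted p under 0.05). Defining genes of heart muscle were bright in all 8 hearts, with Myh6 between 20513 and 39594 in induced hearts and between 22699 and 29214 in control hearts. Chemokines and cytokines had 0 higher and 1 lower without the Xist hearts, 0 and 1 without the atrial hearts, and 1 and 0 under median scaling. When both Xist hearts were dropped, the call of Tnfrsf12a ended (adjusted p = 0.283). When both atrial hearts were dropped, the call of Tnfrsf12a ended (adjusted p = 0.113). Tnfrsf12a lost its call without control heart 3 or 4 (adjusted p up to 0.0541).

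Several of the largest changes lay outside these families. Doc2g, a C2-domain protein of the Doc2 family, read 327, 280, 319 and 309 in induced hearts, against 3698, 2724, 2231 and 3165 in control hearts (log2 change -3.04 ± 0.22, adjusted p = 7.94e-08). Ptgds, prostaglandin D2 synthase, read 452, 704, 386 and 348 in induced hearts, against 3662, 4296, 1396 and 4087 in control hearts (log2 change -2.63 ± 0.31, adjusted p = 4.08e-05), with a second probe set at -2.43, adjusted p = 1.06e-06. Ces1d, a carboxylesterase, fell, with a log2 change of -1.94, as did Cpxm2, a carboxypeptidase-like protein, with -1.77. The long noncoding RNA Malat1 read 172, 608, 374 and 362 in induced hearts, against 2168, 1316, 1257 and 1189 in control hearts (log2 change -1.90 ± 0.40, adjusted p = 0.0059). Upward, Sh3gl3, an endophilin of membrane bending, read 349, 614, 847 and 860 in induced hearts, against 34.7, 168, 34.4 and 54.4 in control hearts (log2 change 2.59 ± 0.37, adjusted p = 0.00022). Crybb1, a beta-crystallin of the lens, read 282, 389, 378 and 430 in induced hearts, against 43.8, 96.7, 15.6 and 84.1 in control hearts (log2 change 1.99 ± 0.25, adjusted p = 7.08e-05). Dbi, the acyl-CoA binding protein, read 8832, 4554, 7285 and 7202 in induced hearts, against 1598, 1393, 1779 and 1988 in control hearts (log2 change 1.98 ± 0.17, adjusted p = 1.06e-06). Dbh, dopamine beta-hydroxylase, the enzyme that makes noradrenaline, read 445, 329, 455 and 508 in induced hearts, against 94.3, 48.1, 85.4 and 141 in control hearts on chip 430B (log2 change 2.15 ± 0.37, adjusted p = 0.00435). Of nerve and Schwann cell markers, 0 of 13 measured genes rose (0 higher at an unadjusted p under 0.05) and 0 fell (4 lower at an unadjusted p under 0.05). Dbh is among them through another probe set, which was not called. No gene of that list had a log2 change above 0.30 by the probe set that stands for it. Also on chip 430B, further rises were 2.19 for Gsg1l, 2.65 for 6030407O03Rik and 2.05 for C030013G03Rik, and further falls -3.15 for Ifit1bl1 and -1.87 for Mtus2. In each probe set named here for its change the induced and control hearts did not overlap, which was a condition for naming the largest changes. With both Xist hearts left out, the calls of Doc2g, both Ptgds probe sets, Cpxm2, Malat1, Sh3gl3, Crybb1, Dbi, Dbh, Gsg1l, Ifit1bl1 and Mtus2 remained. Those of Ces1d, 6030407O03Rik and C030013G03Rik ended (adjusted p 0.0515 to 0.0863). Without the atrial hearts, the call of 6030407O03Rik ended (adjusted p = 0.0559). Control hearts had mean signals under the filter level for Sh3gl3, Crybb1, 6030407O03Rik and C030013G03Rik, so these probe sets were kept through the signal of other hearts and the log2 changes are set against dim signal.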

How the data were processed

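RNA of 8 mouse hearts (4 induced, 4 control), isolated with Ultraspec-II per the labels' protocols, was read on 16 of 36 arrays. The deposited intensity values are MAS5 signals per the submitters' processing notes. Their mean after trimming 2% at each end was 500.2 on every 430A array and 122.5 on every 430B array, so arrays of a chip share a scale, the chips do not, and levels of different genes were not compared. Detection calls were not used.

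Signals plus an offset of 10% of that mean were put on a log2 scale, which understates changes of dim genes. Probe sets whose mean over the 18 arrays of a chip reached 20% of it were kept. All 18 arrays of a chip were fitted with limma 3.58.1 in R 4.3.3 (1 mean per group, eBayes with a trend), and p-values were adjusted by Benjamini-Hochberg over the chip. Tests of array measures were exact permutation tests. The limma step was tested on simulated data, drawn as independent noise for each probe set. Differences of a heart that many probe sets share were not simulated. A shift of 0.5 on the log2 scale was recovered for 5.5% of the altered probe sets with 430A and for 0.0% with 430B. With a shift of 1.0, recovery reached 76.5% for 430A and 38.0% for 430B. Small shifts were thus mostly missed. At the shift of 1.0, 12 of 165 calls for 430A and 1 of 77 for 430B were false. Per the deposited design, samples are individual mice.

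A gene is represented by its brightest kept probe set with 1 symbol, on chip 430A where it has one. Symbols and promoters are RefSeq's (GRCm38.p6). The members and the 71 gene lists were chosen with earlier results of these data known. Genes named are the Akt1 probe sets, the largest changes without overlap between groups (12 each way on chip 430A, 8 on chip 430B), up to 6 called members of a list in each direction by adjusted p, and the brightest members of lists with few calls. Members named for a known role beyond that rule were chosen after their values were seen. Alternatives varied the arrays fitted, offset, filter, scaling, prior, block, covariates and single hearts.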

Additional observations from a re-analysis of the deposited data

Results flagged for a closer look

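A gap of 1 heart from the other 3 of its group, above Dixon's 95% critical value, was found in 28 of 426 groups of 4 values, over all probe sets named here. Chance alone flags about 1 in 20 such groups. Induced heart 1 stood apart with signals of 20003 for Ttn (others 13737 to 14336), 1456 for Myh7 (others 817 to 856) and 5882 for Psme4 (others 4158 to 4443). In induced heart 2 the gaps were 225 for Gnb3 (others 91.8 to 106), 490 for Cdk1 (others 300 to 327) and 342 for Nrip1 (others 442 to 452). Those of induced heart 3 were 392 for Foxo3 (others 441 to 450), 109 for Sdc4 (others 179 to 187) and 2207 for Timp2 (others 1708 to 1748). Induced heart 4 stood apart with signals of 238 for Birc5 (others 177 to 186) and 4216 for Tubb4b (others 6482 to 6810.4). Among controls, heart 1 stood apart with signals of 189 for Thbs4 (others 27.3 to 34.9), 53.9 for Cthrc1 (others 8.06 to 13.1), 994 for Pi16 (others 602 to 637), 170 for Tubb6 (others 42.3 to 49.1) and 2168 for Malat1 (others 1189 to 1316). Control heart 2 stood apart with signals of 168 for Sh3gl3 (others 34.4 to 54.4). Control heart 3, an Xist heart, stood apart with signals of 374 for Pik3r3 (others 411 to 417), 1325 for Pcolce (others 1868 to 1872), 824 for Kcnq1 (others 610 to 646), 1418 for Acadsb (others 1091 to 1138) and 3968 for Ptgds (others 8210.2 to 8567). Control heart 4, an Xist heart with atrial signal, stood apart with signals of 652 for Akt1 (others 508 to 517), 6247 for Col3a1 (others 4898 to 5123), 1767 for Mfap5 (others 789 to 873), 26347 for Nppa (others 1459 to 4213), 2459.9 for Gstm2 (others 1629 to 1754) and 2446 for Dbp (others 3027 to 3065).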

How the results depend on the processing

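The calls on chips 430A and 430B numbered 1302 and 356. Without the Xist hearts they numbered 390 and 134, with an Xist indicator as a covariate 409 and 152, and without the atrial hearts, an alternative added after the values had been seen, 505 and 130. These fits use fewer hearts or a covariate that varies among control hearts alone, and how much of the loss comes from that was not tested. Without a trend in the prior variance they numbered 1187 and 184, the second a fall by more than 1.5 times. With 1 heart left out at a time the range was 817 to 1468 for chip 430A, and for chip 430B it was 172 to 324. All other alternatives gave counts within 1.5 times: a fit of the 8 arrays alone, an offset at 5% or 20% of the trimmed mean, no filter or one at 50%, median scaling (where the split on chip 430B was 165 higher and 87 lower), quantile normalization and the Actb ratio as a covariate. The log2 change of Akt1 lay between 2.17 and 2.44 in every fit, always called.

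Whether the replicate numbers of the labels pair the hearts was not settled. The deviations of hearts with the same number correlated at 0.14, 0.33, -0.03 and -0.04 on chip 430A and at 0.09, -0.02, 0.01 and 0.07 on chip 430B. Of 8 values per heart number and chip, 4 were highest with the heart's own number, more than a random order would give on average. With the replicate block, 1244 and 322 probe sets were called, and 177 of the 180 named called probe sets kept the call.

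Of those 180, 110 kept the call without the Xist hearts, 129 without the atrial hearts and 165 under median scaling, and in the fits listed here none of the 180 turned sign. Median scaling ended the calls of Ulk1, Cthrc1, Thbs2, Vcl, Pln, the third Trdn probe set, Kcnj11, Gja1, Echs1, Ivd, Slc6a8, Eef2, Eif4a2, Asb10 and Nr1d2 (limma, adjusted p 0.05 to 0.226). Counting a gene as called when any of its probe sets was gave 14 higher and 0 lower among collagen chains, 16 higher and 0 lower among mitotic genes and 0 higher and 9 lower among clock genes. Values that turned sign belonged to genes that were not called. Foxo1 gave 0.03 without the Xist hearts and with the Xist covariate. The brightest Foxo3 probe set gave 0.01 without the Xist hearts and with the Xist covariate, 0.08 without the atrial hearts, -0.42 to 0.16 with 1 heart left out. Igf1 gave -0.15 to 0.21 with 1 heart left out. Vegfa gave 0.05 without the Xist hearts and with the Xist covariate. Myh6 gave -0.04 without the Xist hearts and with the Xist covariate, -0.01 with the Actb covariate, -0.16 to 0.16 with 1 heart left out. Tnnt2 gave 0.07 under median scaling, 0.03 under quantile normalization, 0.04 without the atrial hearts, -0.20 to 0.10 with 1 heart left out. Actc1 gave 0.08 under median scaling, 0.09 under quantile normalization and without the atrial hearts, -0.21 to 0.12 with 1 heart left out. Ttn gave 0.01 under median scaling, -0.22 to 0.07 with 1 heart left out. Nppa gave -1.04 to 0.33 with 1 heart left out. Ckm gave 0.05 under median scaling, 0.07 under quantile normalization, -0.15 to 0.04 with 1 heart left out. Cdh5 gave -0.07 without the Xist hearts and with the Xist covariate, -0.06 without the atrial hearts, 0.00 to 0.14 with 1 heart left out. The number of arrays limits the precision, and signals near the filter are little above background.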

Other observations

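Several further families held single genes with clear values. Among cardiac transcription factors, 0 of 34 measured genes rose (1 higher at an unadjusted p under 0.05) and 4 fell (11.8%). Hopx, a homeodomain protein known to restrain growth of heart muscle, read 5265, 7147, 6678 and 6131 in induced hearts, against 9877, 10105, 9712 and 11434 in control hearts (log2 change -0.71 ± 0.12, adjusted p = 0.000993), with no overlap. Nfatc3, a calcineurin-regulated factor known from heart growth, fell (-0.96, adjusted p = 0.0304), as did Prox1, a homeodomain factor of muscle structure (-0.68, adjusted p = 0.0193). Of the dystrophin complex and caveolar genes, 3 of 26 measured genes rose (11.5%) and 1 fell (3.85%). Anxa2, an annexin of membrane repair, read 3482, 3315, 3319.6 and 3216 in induced hearts, against 2123, 1722, 1304 and 1712 in control hearts (log2 change 0.96 ± 0.21, adjusted p = 0.0074), and Ehd4, an endocytic protein, fell (-0.75, adjusted p = 0.0038). Of M-band, Z-disc and titin-associated genes, 2 of 34 measured genes rose (5.88%) and 1 fell (2.94%), and besides Myom2 the calls included Capn3, a protease bound to titin (0.76, adjusted p = 0.00595). Of mitochondrial carriers, 2 of 49 measured genes rose (4.08%) and 2 fell (4.08%). Slc25a33, a pyrimidine nucleotide carrier, read 323, 339, 373 and 389 in induced hearts, against 592, 707, 881 and 852 in control hearts (log2 change -0.98 ± 0.12, adjusted p = 7.13e-05), with no overlap. Of MAP kinase phosphatases and feedback inhibitors, 1 of 24 measured genes rose (4.17%) and 0 fell (3 lower at an unadjusted p under 0.05), the rise being Dusp8, a phosphatase of stress kinases (0.79, adjusted p = 0.00194). A pair of ubiquitin-conjugating enzymes with close sequences had opposite calls, Ube2a with a rise (0.66, adjusted p = 0.00104) and Ube2b with a fall (-0.49, adjusted p = 0.00258). Of ribosome biogenesis genes, 1 of 50 measured genes rose (2%) and 0 fell (3 lower at an unadjusted p under 0.05), and of adipocyte markers, 0 of 10 measured genes rose (1 higher at an unadjusted p under 0.05) and 0 fell (0 lower at an unadjusted p under 0.05). Cardiac transcription factors had 0 higher and 1 lower without the Xist hearts, 0 and 1 without the atrial hearts, and 0 and 3 under median scaling. Dystrophin and caveolar genes had 0 higher and 1 lower without the Xist hearts, 1 and 1 without the atrial hearts, and 3 and 1 under median scaling. M-band and Z-disc genes had 1 higher and 1 lower without the Xist hearts, 1 and 1 without the atrial hearts, and 1 and 1 under median scaling. Mitochondrial carriers had 1 higher and 1 lower without the Xist hearts, 2 and 1 without the atrial hearts, and 3 and 1 under median scaling. Once both Xist hearts were left out, the calls of Hopx, Ehd4, Capn3, Slc25a33, Dusp8, Ube2a and Ube2b remained. Those of Nfatc3, Prox1 and Anxa2 ended (adjusted p 0.121 to 0.278). With both atrial hearts left out, the calls of Nfatc3 and Prox1 ended (adjusted p 0.105 to 0.13). Nfatc3 lost its call without induced heart 1, 2 or 3, or control heart 1, 2, 3 or 4 (adjusted p up to 0.0864). Prox1 lost its call without induced heart 3 or 4, or control heart 3 or 4 (adjusted p up to 0.0666).

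Atrial genes showed how far control heart 4 and induced heart 3 stood apart. Sln, sarcolipin, read 89.8, 19.8, 1779.5 and 7.8 in induced hearts, against 7.7, 14.3, 13.6 and 10057 in control hearts. Myl4, the atrial essential light chain, read 1456, 767, 3771 and 676 in induced hearts, against 322, 369, 312 and 16377 in control hearts. In each case control heart 4 was the highest of the 8 hearts and induced heart 3 the highest of the induced hearts. No source used here gives how much atrial tissue a sample held.

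The letters TGTTTAC, known from FoxO binding, stood on either strand in 3 of 27 promoters of the measured FoxO-list genes (11.1%), against 2.4% of promoters of all genes measured and 3.17% of all promoters. They stood in 0 of 3 promoters of the members that rose and in 1 of 8 of those that fell.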
